A study of Mus musculus with 21 samples.

Results

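Untransduced mouse embryonic fibroblasts (MEFs) were the starting population of a study that turned fibroblasts toward dendritic cells. The cells described here were all those whose barcode carried the prefix of either of the 2 MEF libraries, without any selection on expression. They numbered 3773 of the 25991 cells deposited, with 2045 in MEF replicate 1 and 1728 in MEF replicate 2. Per the labels these cells were wildtype, received no virus, and were sorted only as live, DAPI-negative cells. The labels give neither their time in culture nor the number of embryos, and do not say whether the replicates came from separate cultures or animals, so p-values here reflect only how far these libraries vary, possibly for technical reasons.

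The rest of the series served as reference. Lentivirally transduced MEFs formed 8 libraries at day 3 (8605 cells) and 8 at day 9 (6749 cells), with the factor sets named PI8, PIB, PI4, PIP, SI8 and SII and gelatin-coated culture in DMEM with 10% FBS. They carried either Clec9aCre/Cre with Rosa26stopflox-tdTomato/tdTomato and were sorted as tdTomato-positive, or hCD2Cre/WT with Rosa26stopflow-YFP/WT and were sorted as YFP-positive. Wildtype splenic dendritic cells (cDC1, cDC2 and pDC; 6864 cells in 3 libraries) gave the level of fibroblast genes in cells that should lack them. Virus, reporter genotype, sort and time in culture all went with the contrast between untransduced and transduced libraries and cannot be told apart in it.

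Fibroblasts build and remodel connective tissue: they secrete fibrillar collagens, the proteoglycans and glycoproteins that organise collagen fibrils, and the proteases that degrade them. They also act as sentinels, releasing chemokines and acute-phase proteins, and they keep through culture a memory of their place in the body in the form of Hox and other homeobox genes. An embryonic fibroblast culture pools cells from many sites of the embryo body and, after some passages, tends to leave the cell cycle with CDK inhibitors raised.

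The libraries totalled 39630573 and 47984915 UMIs, with medians of 18100 and 25927.5 UMIs and 4078 and 4853 genes per cell and mitochondrial shares of 3.16% and 2.98%. They had 0 cell barcodes in common. The chi-square statistic between the MEF libraries was 2.35 for each degree of freedom (15245 genes compared). It treats UMIs as independent although cells vary, so it does not show a difference beyond the sampling of cells. The libraries are 2 samples by their labels and were kept as such. Scrublet marked 19 and 14 cells as doublets, which were kept.

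The label fitted its markers. Levels are given in CPM (UMIs of a gene scaled to an equal library total), for replicate 1 and then replicate 2. Col1a1, a chain of type I collagen, stood at 5437 and 5409 CPM. Col3a1, the chain of type III collagen, stood at 6113 and 6057 CPM. Cxcl5, a neutrophil-attracting chemokine, stood at 7478 and 7541 CPM and ranked 4 among 24455 genes. Mgp, the matrix Gla protein that keeps soft tissue from calcifying, stood at 4526 and 4610 CPM. After thinning each cell to 10000 UMIs, Col1a1 was seen in 100% of 1983 and of 1718 cells, Col3a1 in 99.9% and 100%, Cxcl5 in 97.2% and 98.6%, and Mgp in 99.4% and 99.5%. None of these 4 had a UMI in any thinned splenic dendritic cell. Of the full list of 12 fibroblast genes, 11 stood at 50 CPM or more, but not all were as abundant. Pdgfra ranked 1617 and had a UMI in 51.8% and 50.3% of thinned MEF cells, and Thy1 ranked 3364.

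Lists of markers of other cell types gave low sums in both libraries, with several defining genes at 0. The 10 leukocyte genes summed to 2.83 and 2.81 CPM, with Ptprc, Tyrobp, Spi1, Rac2 and Cd48 at 0 in both. The macrophage list summed to 10.4 and 10.3 CPM, mostly Mertk and Cd68, with Adgre1 and all 3 C1q genes at 0. The epithelial list came to 2.35 and 1.94 CPM, the mesothelial list to 2.98 and 2.38 CPM, and the Schwann and neural crest list to 3.15 and 3.46 CPM. The endothelial list came to 24.6 and 25.2 CPM, of which Egfl7 made up 22.3 and 23.4 CPM, while Cdh5, Emcn and Cldn5 were at 0. The pericyte and vascular smooth muscle list came to 36.5 and 32.3 CPM, mostly Notch3 (17.7 and 15.7 CPM) and Cspg4 (14.7 and 13.1 CPM), and the neuronal list to 23.4 and 20.9 CPM, mostly Stmn2 (10.6 and 9.09 CPM) and Map2 (9.69 and 9.25 CPM). Lists of committed mesenchymal fates were mixed. The chondrogenic list came to 42.7 and 40.9 CPM, with Acan, which encodes the cartilage proteoglycan aggrecan, at 0. The osteogenic list came to 7379 and 7476 CPM, almost all from Spp1 (7358 and 7455 CPM), while Sp7, the osteoblast regulator, stood at 0.025 and 0.063 CPM. The adipogenic list came to 131.1 and 136.6 CPM, mostly the fatty acid carrier Fabp4 (112.6 and 119.3 CPM), while Pparg, the adipocyte regulator, stood at 0.479 and 0.834 CPM.

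The libraries were nearly interchangeable in level. Among 2791 genes at 50 CPM or more in either library, 0 (0%) differed by 1.5-fold or more, and 2754 (98.7%) lay within 10% of each other. The largest ratios of replicate 1 to replicate 2 were 1.19 for Ifit2, an interferon-induced protein (53.5 against 44.8 CPM; 95% counting interval of the ratio 1.12 to 1.27), and 1.15 for Ccn2, the matrix-associated growth factor CTGF (50.1 against 43.5 CPM). In the other direction the respiratory chain subunit Cox8a had the most extreme ratio, 0.863 (802.3 against 930.1 CPM). With 1 library on each side these ratios have no replicate check and no test was made. At a minimum of 10 CPM, 2 genes of 7665 passed 1.5-fold.

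**Figure D1:**
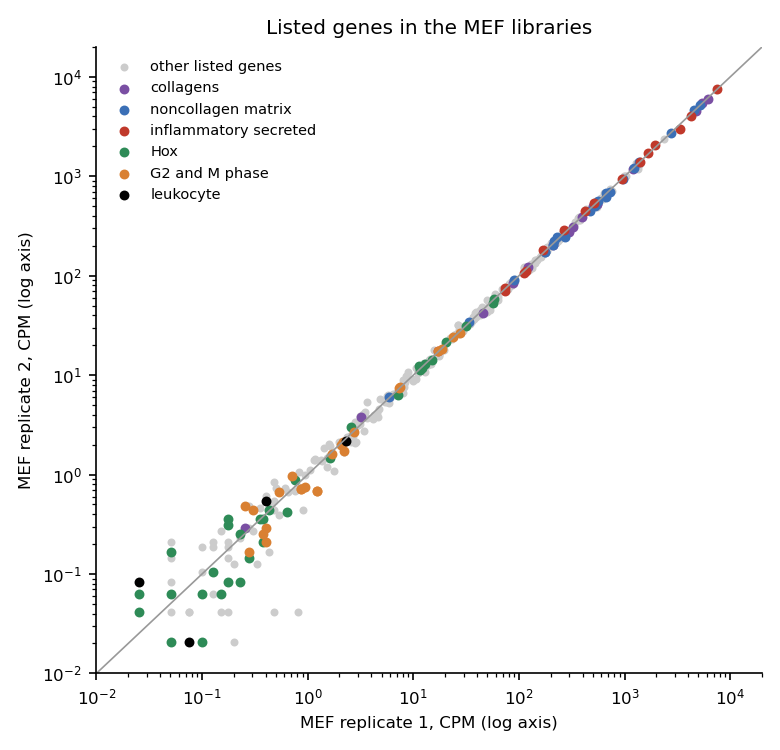
Level of each listed gene in MEF replicate 1 (horizontal, CPM, log axis) against MEF replicate 2 (vertical, CPM, log axis), colored by list, with the line of equality in grey; genes at 0 in either library are left out. Collagen, matrix and inflammatory genes above 50 CPM follow the line, and leukocyte and most G2 and M phase genes lie at the low end.

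Matrix genes made up the bulk of the fibroblast program. The 16 collagens summed to 20524 and 20187 CPM, with 13 above 50 CPM and 7 above 500 CPM. Beside the type I and III chains, Col5a2, a regulator of fibril diameter, stood at 1199.8 and 1182 CPM, and Col6a1, a chain of the beaded-filament collagen VI, at 542.4 and 521.5 CPM. Col15a1, a collagen of basement membrane zones, was at 0.252 and 0.292 CPM. The 21 noncollagen matrix genes summed to 21124 and 20997 CPM. Sparc, a collagen-binding glycoprotein, reached 5205 and 5214 CPM, Bgn (biglycan) 2779 and 2728 CPM, and Fn1 (fibronectin) 973.0 and 936.5 CPM. Eln, which encodes elastin, was modest at 33.5 and 34.5 CPM.

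Contractile genes did not show the pattern of smooth muscle. Acta2, the smooth muscle actin that marks myofibroblasts, stood at 81.9 and 85.2 CPM and had a UMI in 24.7% and 26.8% of thinned cells. Tpm1 and Cald1, cytoskeletal proteins found in most adherent cells, were high at 1021 and 997.6 CPM and at 975.6 and 960.2 CPM. Cnn1, a calponin of differentiated smooth muscle, stood at 1.34 and 1.40 CPM, and Myh11, the smooth muscle myosin, at 0.076 and 0.042 CPM.

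Secreted inflammatory genes were abundant. The 16 genes of this list summed to 22802 and 22555 CPM, and 15 of them lay above 50 CPM. Mmp3 (stromelysin-1, a matrix protease) stood at 4257 and 4053 CPM. Saa3, an acute-phase serum amyloid, stood at 3340.2 and 3016 CPM. Lcn2, an iron-scavenging acute-phase protein, stood at 1943 and 2060.5 CPM, and the monocyte chemoattractant Ccl2 at 1665 and 1703 CPM. Il6, by contrast, was at 17.0 and 17.6 CPM. Spp1 (osteopontin) ranked 5 of all genes at 7358 and 7455 CPM.

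Interferon-stimulated genes were also well above the floor of detection. The 16 genes of an interferon list, drawn up after their values had been seen, summed to 6857 and 6767 CPM in MEF, 768.6 to 7579 CPM at day 3 and 301.9 to 6377 CPM at day 9. Isg15, a ubiquitin-like modifier, stood at 2379 and 2354 CPM. Ifit3, an antiviral RNA-binding protein partner, stood at 977.3 and 1005 CPM, and Cxcl10, a T cell chemoattractant, at 550.4 and 491.8 CPM. Rsad2, the antiviral enzyme viperin, stood at 125.0 and 114.5 CPM. Of the 16, 1 was higher in MEF than at day 3 (Gbp7, where 8.38% of all genes tested were higher) and 0 lower; its levels were 118.4 and 113.6 CPM in MEF and 2.59 to 19.6 CPM at day 3 (log2 difference 3.15 ± 0.70 SE, edgeR adjusted p = 0.00573).

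The promoters of these genes are shown because a single short motif recurs in them. The windows run from 250 bases before to 50 after the start site, as RefSeq gives them on GRCm38.p6, and capitals mark every match, on either strand, to a pair of TTTC repeats with any 2 bases between them (a pair of GAAA repeats on the other strand), the core of the interferon-stimulated response element. Isg15 lies at chr4:156200769-156201068 on the minus strand, Cxcl10 at chr5:92348840-92349139 on the minus strand and Rsad2 at chr12:26456403-26456702 on the minus strand.
Isg15: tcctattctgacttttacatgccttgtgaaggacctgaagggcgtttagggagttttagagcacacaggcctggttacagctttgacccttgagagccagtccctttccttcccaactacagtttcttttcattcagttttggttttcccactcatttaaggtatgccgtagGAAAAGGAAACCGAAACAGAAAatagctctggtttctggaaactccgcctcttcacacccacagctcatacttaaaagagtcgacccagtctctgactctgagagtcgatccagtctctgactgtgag
Cxcl10: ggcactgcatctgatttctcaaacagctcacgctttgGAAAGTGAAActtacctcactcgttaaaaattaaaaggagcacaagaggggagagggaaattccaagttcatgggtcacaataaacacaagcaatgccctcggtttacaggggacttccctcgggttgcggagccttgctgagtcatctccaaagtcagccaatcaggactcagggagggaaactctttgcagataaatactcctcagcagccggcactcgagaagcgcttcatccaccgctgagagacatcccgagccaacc
Rsad2: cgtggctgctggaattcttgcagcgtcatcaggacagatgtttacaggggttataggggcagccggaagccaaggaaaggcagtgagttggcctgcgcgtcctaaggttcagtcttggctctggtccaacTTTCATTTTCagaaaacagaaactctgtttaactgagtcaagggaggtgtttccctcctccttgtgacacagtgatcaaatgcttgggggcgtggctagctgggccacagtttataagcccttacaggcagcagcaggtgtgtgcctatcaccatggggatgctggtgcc
Isg15 holds 3 overlapping matches, and Cxcl10 and Rsad2 hold 1 each. Of the 16 listed genes, 13 had a promoter in the table and 8 of these held the motif (Ifit1, Ifit3, Ifit3b, Rsad2, Cxcl10, Isg15, Gbp2 and Gbp7), beside 1079 of 27025 genes in all (3.99%). Of the inflammatory list 2 of 12 matched genes held it, Saa3 and Mmp13, and of the collagens 0 of 12. A match is a description of these letters and not evidence of a bound factor.

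Secreted proteins and the nuclear noncoding RNA Malat1 led the genes ranked by Fano factor, the variance over the mean of UMIs per thinned cell. This factor had a median of 1.13 in both libraries over 2750 genes, and 285 genes were above 2 in both. At equal relative spread it rises with the mean, so the ranking favours abundant genes. Malat1 averaged 283.6 and 279.2 UMIs per 10000, whereas Mmp13, with Fano factors of 26.5 and 15.3, averaged 0.773 and 0.714. The leading gene was Saa3, with Fano factors of 158 and 159. Spp1 followed at 113 and 117, the chemokine Ccl5 at 108 and 109, and Mmp3 at 103 and 95.2. Malat1 was the fifth gene, at 63.0 and 59.2. Ptn (the growth factor pleiotrophin), Mgp, Lcn2, Cxcl10 and Cxcl5 completed the 10 highest, and Fth1, the intracellular ferritin heavy chain, came next. The libraries shared 93 of their 100 genes of highest Fano factor. Per cell, the inflammatory list ran from 52 UMIs at the 5th percentile to 513.9 at the 95th in replicate 1 and from 57.9 to 513 in replicate 2, of 10000 UMIs. The collagen list ran only from 117 to 301 and from 110 to 298 UMIs.

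**Figure D2:**
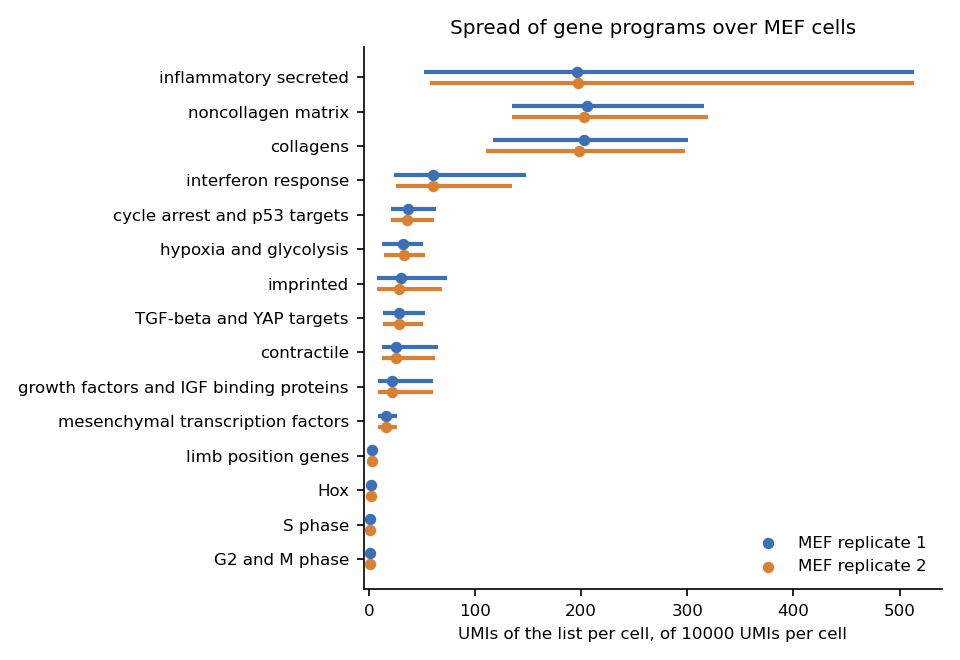
UMIs of each gene list per cell, of 10000 UMIs per cell (horizontal), for MEF replicate 1 and replicate 2; points are medians over cells and bars run from the 5th to the 95th percentile. The inflammatory list has the widest spread, 52 to 513.9 UMIs in replicate 1, and the collagen list a narrower one, 117 to 301 UMIs.

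Clustering split the cells into 4 groups that held nearly the same share of both libraries. These clusters are a description: a cluster's leading genes come from the same cells that were clustered, so no test was made, and none carried enough markers of 1 listed cell type among its leading genes to be named. All clusters kept the fibroblast markers, whose list summed to between 30789 and 34429 CPM in every cluster and library. Shares are of all cells of the library, values are for replicate 1 and then 2, and the rest means the other MEF cells.

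Cluster 1 held 30.3% and 31.7% of cells. Its leading gene was Tnn, the matrix glycoprotein tenascin-N (also called tenascin-W), at 133.3 and 138.3 CPM against 5.70 and 4.79 CPM in the rest. Lhx9, a LIM-homeobox gene of the limb bud mesenchyme, followed at 66.7 and 78.9 CPM against 7.96 and 7.26 CPM. The growth factor Igf1 (148.1 and 174.0 CPM), the chemokine Cxcl14 (768.2 and 869.8 CPM) and Wnt5a, a ligand for limb and body outgrowth (106.8 and 116.2 CPM), were also among its 10 leading genes. Lhx2, the close relative of Lhx9, stood at 15.8 and 15.5 CPM here and at most at 3.25 CPM in any other cluster, and the homeobox gene Msx1 at 36.3 and 38.2 CPM against at most 8.01 CPM. The matricellular protein Thbs1 was low (69.0 and 67.2 CPM against 286.1 and 306.5 CPM in the rest), as was the inflammatory list (18226 and 17223 CPM, the lowest of the 4 clusters). In thinned cells, Lhx9 had a UMI in 49.7% and 55.4% of Tnn-positive cells and in 12.5% and 11.5% of the others.

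Cluster 2 held 24.0% and 24.4% of cells and led with chemokines. Cxcl10 stood at 1045 and 832.5 CPM against 384.7 and 375.2 CPM in the rest, and Ccl5, a chemokine for lymphocytes and monocytes, stood at 831.2 and 913.8 CPM against 357.9 and 365.1 CPM. Cxcl9, another ligand of the receptor for Cxcl10, and Ccl20 were also in its top 10. Spp1 reached 11546 and 12809 CPM against 5957 and 5622 CPM. The actin-binding protein Tagln (270.9 and 239.7 CPM) and Acta2 (135.9 and 132.9 CPM) were at their highest here. The S phase list summed to 244.0 and 250.6 CPM, the highest of the 4 clusters, and 32 and 36 of the cells classed as S lay in it.

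Cluster 3, the smallest at 14.91% and 14.99%, was led by Crip2 (a LIM-domain protein; 141.5 and 120.5 CPM) and Cox6b2 (a cytochrome oxidase subunit; 234.3 and 202.6 CPM). Mdm2, the ubiquitin ligase that is both target and inhibitor of p53, stood at 200.5 and 179.4 CPM against 61.6 and 62.2 CPM in the rest. The CDK inhibitor Cdkn1a, another target of p53, stood at 1087 and 984.7 CPM against at most 658.5 CPM in the other clusters, and the p53 target Ccng1 at 363.3 and 330.0 CPM against at most 164.1 CPM. The G2 and M phase list was also at its highest here, at 140.8 and 145.8 CPM, against 136.9 and 132.1 CPM in cluster 2. Collagens summed to 16782 and 16752 CPM here and to at least 20555 CPM in each other cluster. Genes of serine synthesis and amino acid supply (Phgdh, Asns, Mthfd2) were among its 10 lowest. Ly6a, a surface protein of stromal progenitors, was at its highest, 1656 and 1732 CPM.

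Cluster 4 held 30.9% and 28.9% of cells. Igfbp2, a carrier of insulin-like growth factors, stood at 243.0 and 252.0 CPM against 81.9 and 75.2 CPM in the rest, and Ptn at 723.7 and 746.6 CPM against 246.1 and 231.2 CPM. Cdkn1c, an imprinted CDK inhibitor, was also in its top 10 (87.5 and 82.8 CPM). The imprinted list summed to 4201 and 4085 CPM, the highest of the 4, with Igf2, the imprinted fetal growth factor, at 1055 and 1058 CPM against 407.2 and 397.7 CPM in cluster 1. Saa3 (5388 and 4239.9 CPM) and Mmp3 (5842 and 5665 CPM) were high, whereas Ccn2 was low at 12.9 and 15.2 CPM.

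**Figure D3:**
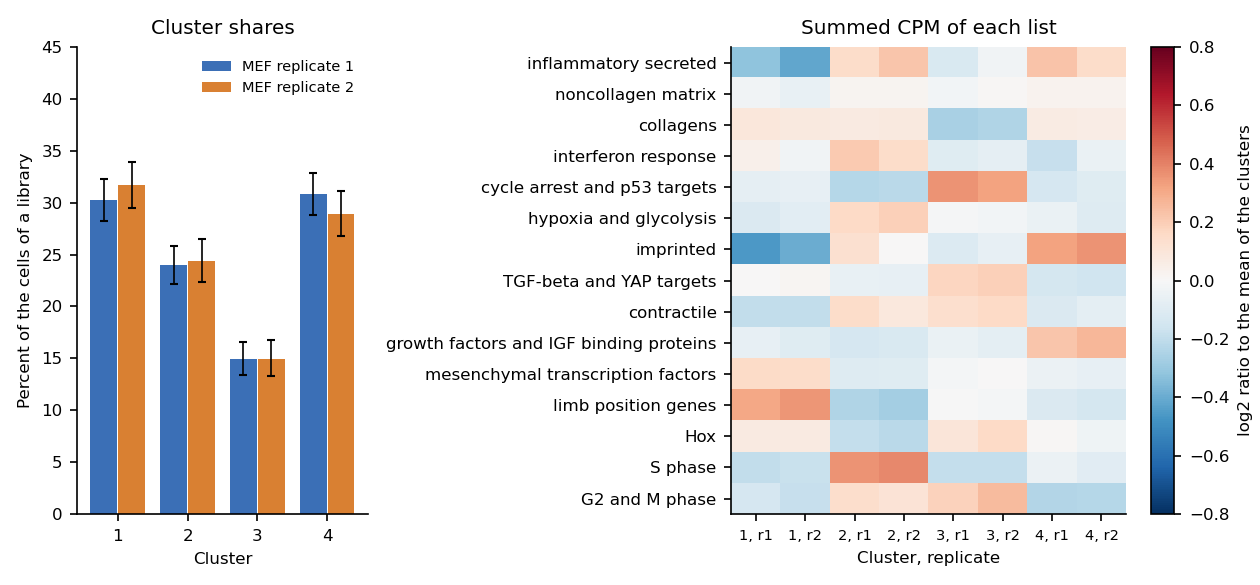
Left, the share of each MEF library's cells in clusters 1 to 4 (vertical, percent; bars with 95% exact binomial intervals); right, the log2 ratio of each list's summed CPM to its mean over the 4 clusters, per cluster and replicate (r1, r2). The intervals of the replicates overlap in every cluster. Limb position genes, a list drawn up after its values had been seen, are highest in cluster 1. Hox genes are not (259.6 and 256.4 CPM there, 263.4 and 272.3 CPM in cluster 3). Cycle arrest and p53 targets and G2 and M phase genes are highest in cluster 3 and imprinted genes in cluster 4.

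The clusters moved with the settings. Between 47.6% and 97.7% of the cells of cluster 1 stayed together in 1 cluster under the alternatives tried. The Jaccard index of cluster 1 was 0.711 or more except at a resolution of 0.8 (0.474, where cluster 2 had 0.507). Over the same alternatives the index ran from 0.285 to 0.751 for cluster 2, from 0.156 to 0.668 for cluster 3 and from 0.368 to 0.764 for cluster 4. The number of clusters ran from 3 to 8. Median UMIs were 16731 and 23314 in cluster 4 against 19287.5 and 27683 in cluster 2; the part of depth in this split was not tested.

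Few cells carried transcripts of division. A cell, thinned to 10000 UMIs, was classed as G2M when it had a UMI of at least 5 of 24 G2 and M phase genes, and otherwise as S when it had at least 5 of 20 S phase genes. By this rule 19 of 1983 cells were G2M in replicate 1 (0.958%, exact 95% interval 0.578% to 1.49%) and 19 of 1718 in replicate 2 (1.11%, 0.667% to 1.72%). The S class held 71 (3.58%) and 69 (4.02%) cells. Mki67, the proliferation antigen, had a UMI in 0.555% and 0.757% of cells and Ccnb1 (cyclin B1) in 0.353% and 0.698%. Counting error alone covers the gap between the libraries, but the size of the shares follows the rule: unthinned, the G2M class held 3.91% and 6.77% of cells, with the deeper library higher.

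Inhibitors of division were present in nearly every cell. Cdkn1a stood at 644.2 and 624.9 CPM and had a UMI in 96.1% and 95.6% of thinned cells. Cdkn2a, which encodes p16 and p19ARF (chr4:89274471-89294653, mm10), stood at 467.1 and 463.4 CPM and had a UMI in 93.0% and 93.1%. In thinned splenic dendritic cells the same shares were 1.21% to 5.28% for Cdkn1a and 0% to 0.293% for Cdkn2a. Gas1, a growth-arrest membrane protein, stood at 611.1 and 603.5 CPM. The 18 cycle arrest and p53 genes, D cyclins included, summed to 3869 and 3789 CPM in MEF. This was within the range of the transduced libraries, 3314 to 5964 CPM at day 3 and 872.1 to 7010 CPM at day 9. Of the 18, 2 were higher in MEF at each time and 0 lower, where 8.38% and 5.54% of all genes were higher.

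The few G2M cells were compared with cells of neither class by summing counts per library and class (edgeR, library as a block, cycle lists left out). Of 12916 genes tested 391 were called (3.03%), 242 higher in G2M cells (1.87%) and 149 lower (1.15%). Stmn1, which destabilises microtubules, stood at 221.7 and 147.3 CPM against 18.4 and 16.4 CPM (log2 difference 3.30 ± 0.19 SE, edgeR adjusted p = 9.78e-64). Among matrix genes 9 of 21 were lower and 1 higher, and among inflammatory genes 9 of 16 were lower and 2 higher. DESeq2 called 1 of the 21 lower and 0 higher, and 1 of the 16 lower and 1 higher. The calls rest on 19 cells per library: DESeq2 made 128 in all (115 higher, 13 lower) and edgeR 0 in thinned counts (674 at an unadjusted p under 0.05), and the called rise of Ccl4 came from 116 UMIs in replicate 1 and 0 in replicate 2.

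The cultures mixed cells of both chromosomal sexes in nearly equal parts. Xist, the RNA that coats the inactive X (chrX:103460366-103483254, mm10), and transcripts of the Y-linked genes Ddx3y, Uty, Kdm5d and Eif2s3y (Ddx3y at chrY:1260771-1286629) were counted in each cell. Xist alone was found in 886 cells of replicate 1 (43.3%, 41.2% to 45.5%) and 746 of replicate 2 (43.2%, 40.8% to 45.5%). Y-linked transcripts alone were found in 929 (45.4%) and 847 (49.0%) cells. Both kinds occurred in 73 (3.57%) and 64 (3.70%) cells, whose median UMIs were 22817 and 31382.5, above those of the other classes, and neither in 157 and 71. Scrublet had marked 3 and 4 of the cells with both kinds as doublets, so its calls may miss doublets. Why these cells held both kinds was not tested. All 4 clusters held both sexes, with Xist cells making up 42.8% to 50.6% of the cells classed in any cluster and library.

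Xist-positive and Y-positive cells were compared within the libraries. Xist, Tsix and the 4 Y-linked genes were left out, and the fit used 4 sums with the library as a block. Of 13060 genes 140 were called (1.07%), 78 higher in Xist cells (0.597%) and 62 lower (0.475%). Cells of different chromosomal sex come from different embryos, so a difference between sexes and one between embryos cannot be told apart. The fit has 1 residual degree of freedom before the spread is shared over genes, and sees the variation between cells only through the match of the libraries.

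X-linked genes that are known to be expressed from the inactive X were among those higher in Xist cells. The X-linked genes are named here at any level. Eif2s3x, a translation initiation subunit (chrX:94188707-94212862), stood at 58.9 and 61.4 CPM in Xist cells against 36.2 and 38.2 CPM in Y cells (log2 difference 0.70 ± 0.05 SE, edgeR adjusted p = 6.68e-37). Pbdc1 stood at 63.5 and 65.5 CPM against 38.8 and 42.2 CPM (0.67 ± 0.05, edgeR adjusted p = 6.68e-37). The histone demethylases Kdm5c (0.62 ± 0.06) and Kdm6a (0.55 ± 0.09) and the noncoding RNAs Ftx (0.70 ± 0.16) and 5530601H04Rik (0.76 ± 0.13) also rose, and the helicase Ddx3x by less (0.29 ± 0.04). In all, 14 of 436 X-linked genes tested were called (3.21%), 11 higher and 3 lower, beside 122 of 12506 genes on autosomes and the mitochondrial genome (0.976%). Past a log2 difference of 0.5 either way lay 6 of these 14 and 21 of these 122. The X-linked genes had a median log2 difference of -0.00, like all genes tested. Sms, which encodes spermine synthase, was lower in Xist cells (-0.34 ± 0.06, edgeR adjusted p = 2.85e-05).

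Autosomal differences were mostly small. The largest among abundant genes was Plac8, a small cysteine-rich protein (chr5:100553725-100572245), at 178.8 and 182.1 CPM in Xist cells against 105.6 and 120.8 CPM in Y cells (0.67 ± 0.03, edgeR adjusted p = 5.67e-86), and it was called under every alternative (highest adjusted p 1.14e-06). Igf2 stood at 826.4 and 789.2 CPM against 722.2 and 637.9 CPM (0.25 ± 0.02), and Ly6a was lower in Xist cells, at 812.7 and 822.0 CPM against 1026 and 990.7 CPM (-0.30 ± 0.02). Among inflammatory genes 7 of 16 were higher in Xist cells and 0 lower, where 0.597% and 0.475% of all genes were (median log2 difference 0.05, against -0.00 over all genes), with Saa3 at 3644 and 3237 CPM against 2976 and 2821 CPM (0.25 ± 0.02, edgeR adjusted p = 1.73e-45). Saa3 also had the highest Fano factor between cells. DESeq2 called 3 of the 16 (adjusted p = 0.000637 for Saa3, 4.49e-05 for Ptx3 and 5.09e-05 for Lcn2). Without the library block edgeR called Saa3 alone of the 16 (adjusted p = 0.0132), and in thinned cells it called 4 higher and 1, the chemokine Ccl7, lower (adjusted p = 0.00449). Without the block 29 genes in all were called, and by DESeq2 12.

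**Figure D4:**
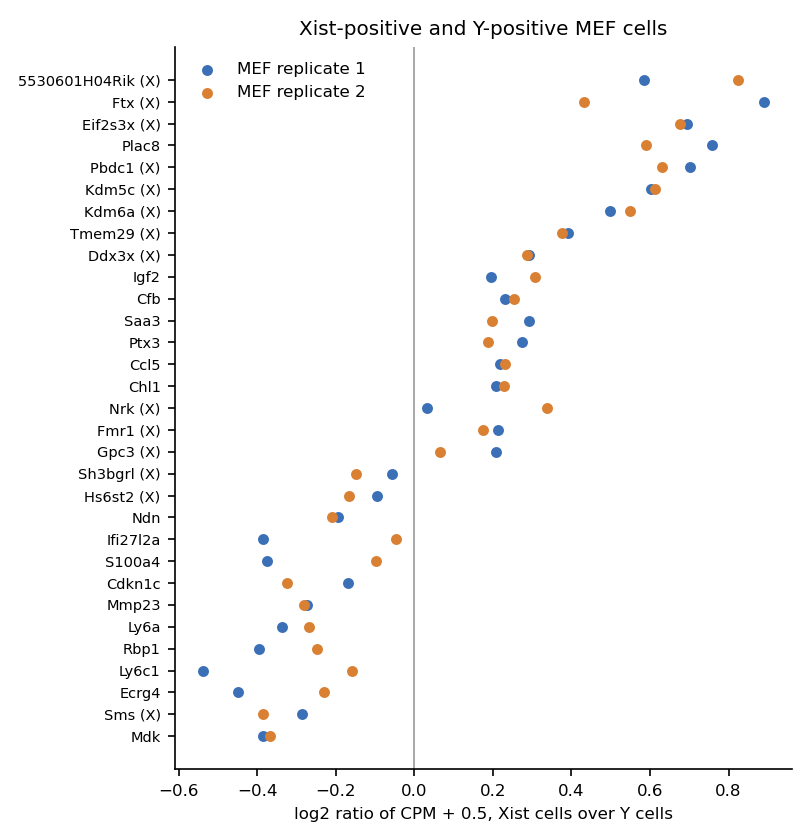
Log2 ratio of CPM + 0.5 in Xist-positive over Y-positive cells (horizontal) for the 20 genes named by size and every called X-linked gene, 1 point per MEF replicate; (X) marks X-linked genes and the grey line is no difference. In both replicates the points of Eif2s3x, Pbdc1, Kdm5c, Kdm6a and Plac8 lie between 0.499 and 0.757, and most other autosomal genes drawn lie nearer to 0. Autosomal genes are drawn only at 50 CPM or more in 1 class, X-linked genes at any level.

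MEF and transduced libraries differed in which Hox clusters were expressed. Hox genes lie in 4 clusters (Hoxa on chromosome 6, Hoxb on 11, Hoxc on 15, Hoxd on 2), are switched on in order along the body axis, and in the limb the last Hoxa and Hoxd genes mark its outer segments. In MEF the 9 Hoxd genes summed to 151.0 and 147.1 CPM and the 11 Hoxa genes to 92.3 and 92.8 CPM, whereas the 10 Hoxb genes summed to 1.16 and 0.625 CPM and the 9 Hoxc genes to 1.44 and 1.63 CPM. The highest single genes were Hoxd11 at 57.9 and 57.9 CPM and Hoxd13 (chr2:74668310-74671599, mm10) at 56.7 and 53.1 CPM, followed by Hoxa10 at 31.8 and 31.6 CPM and Hoxa13 at 20.4 and 21.7 CPM. Hoxd13 and Hoxa13 had a UMI in 41.4% and 38.5% and in 18.1% and 18.6% of thinned cells and 0% of splenic cells. Every Hoxd gene from Hoxd1 to Hoxd4 was below 0.3 CPM.

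In the transduced libraries Hoxb and Hoxc genes together summed to between 87.4 and 580.8 CPM at day 3 (median 228.3) and between 28.1 and 456.7 CPM at day 9 (median 287.6), against 2.60 and 2.25 CPM in MEF. These sums did not overlap, but the Hoxc genes alone did at day 9, where the library labelled PI8 had 0.969 CPM, below the 1.44 and 1.63 CPM of MEF. The 28.1 CPM at day 9 came from that library too. Its 9 Hoxd genes were all at 0 CPM. Its Hoxa9 stood at 139.2 CPM, against at most 40.6 CPM in the other transduced libraries. Hoxb4 stood at 0.227 and 0.083 CPM in MEF and between 12.4 and 54.1 CPM at day 3 (median 24.8; log2 difference MEF minus day 3 of -7.54 ± 0.71 SE, edgeR adjusted p = 7.68e-06). Hoxc9 stood at 0.177 and 0.313 CPM in MEF and between 16.1 and 137.1 CPM at day 3 (median 44.5; -7.89 ± 1.66, edgeR adjusted p = 0.00425). Of 37 Hox genes tested against day 3, 20 were lower in MEF and 0 higher, where 8.7% of all 16538 genes were lower and 8.38% higher. They were 8 of 9 Hoxb genes, 8 of 9 Hoxc genes, Hoxa5, Hoxa7, Hoxd3 and Hoxd4. The median log2 difference of the list was -3.26, against -0.14 over all genes.

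Against day 9, which shares the MEF libraries, 19 Hox genes were lower in MEF and 1 higher, where 5.01% of all genes were lower and 5.54% higher. The gene that was higher was Hoxa13, with 0 to 5.73 CPM at day 9 (3.08 ± 0.94, edgeR adjusted p = 0.0452). Hoxd13 lay between 0.921 and 41.2 CPM at day 3 and between 0 and 23.5 CPM at day 9, below both MEF libraries in 8 of 8 libraries at each time. How many of all genes separate in this way was not counted. The 0 CPM of Hoxa13 and of Hoxd13 at day 9 came from the library labelled PI8 day 9. Hoxd13 passed the test at neither time (2.09 ± 1.19 and 2.94 ± 1.16, edgeR adjusted p = 0.231 and 0.112). Without either MEF library, 6 or 8 Hox genes were lower than at day 3 and 5 than at day 9, as the fit then rests on 1 MEF library.

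**Figure D5:**
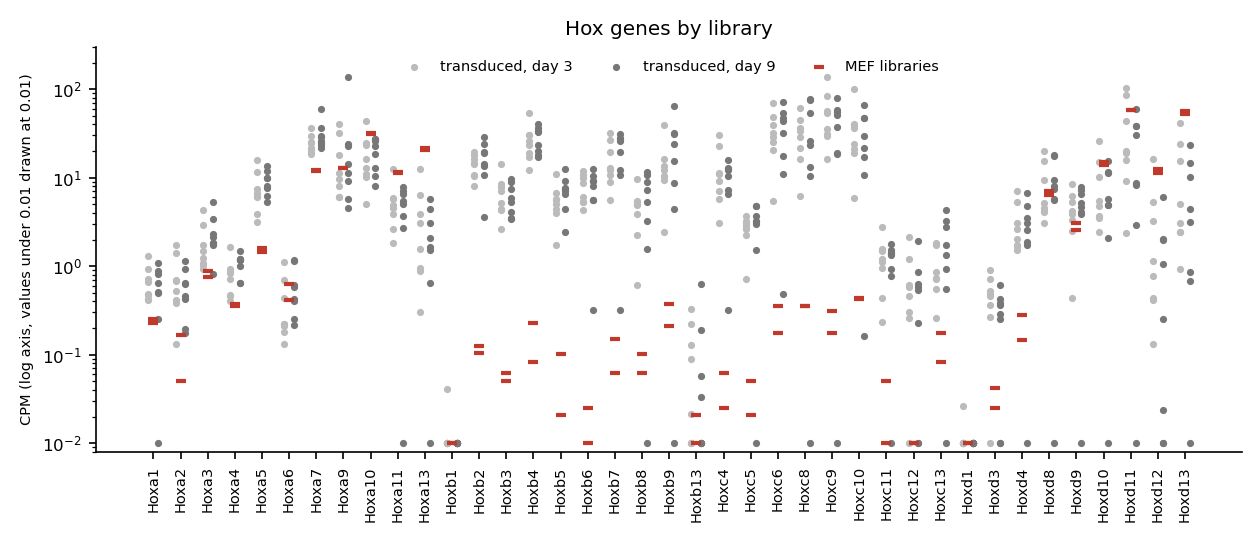
CPM of each of the 39 Hox genes (vertical, log axis; values under 0.01 drawn at 0.01) in the 2 MEF libraries (red bars), the 8 transduced libraries at day 3 (light points) and the 8 at day 9 (dark points). MEF bars for Hoxb and Hoxc genes stay below 0.5 CPM, while those for Hoxd13 and Hoxa13 lie above every transduced library.

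Other limb genes varied among MEF cells. Tbx5, the T-box gene of the forelimb (chr5:119832668-119885219), stood at 12.7 and 11.1 CPM, and the hindlimb genes Tbx4 (chr11:85886422-85916097) and Pitx1 at 16.9 and 16.5 CPM and at 13.7 and 12.8 CPM. Forelimb and hindlimb transcripts rarely met in a cell. Of 1983 thinned cells of replicate 1, 208 had a Tbx5 UMI and 454 a UMI of Tbx4 or Pitx1, and 12 had both, so Tbx4 or Pitx1 was seen in 5.77% of Tbx5 cells and in 24.9% of cells without Tbx5. In replicate 2 the shares were 5.78% (10 of 173 cells) and 22.8%. At these levels most cells of a positive type will show no UMI, and the pair was chosen after its values had been seen. Tbx4 was higher in MEF than at day 3 (0.964 to 4.12 CPM, median 1.40; 2.98 ± 0.68, edgeR adjusted p = 0.00732), and Msx1 likewise (0.483 to 3.73 CPM; 2.84 ± 0.67, edgeR adjusted p = 0.00878). Pitx1 was not called, with 5.23 to 36.2 CPM at day 3. Of the 17 limb position genes, 2 were higher in MEF than at day 3 and 0 lower. Over all genes 8.38% were higher and 8.7% lower, so the list as a whole did not stand out.

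Some of the matrix genes were higher in untransduced than in transduced cells, and none was lower. In all 2825 of 16538 genes (17.1%) were called against day 3 and 1746 (10.6%) against day 9. Of 16 collagens 8 were higher in MEF than at day 3 and 6 than at day 9, where 8.38% and 5.54% of all genes were higher. Col6a1, at 542.4 and 521.5 CPM in MEF, lay between 4.23 and 13.6 CPM at day 3 (6.16 ± 0.73, edgeR adjusted p = 5.98e-05). Of 21 noncollagen matrix genes 9 and 8 were higher. With either MEF library left out, 5 collagens and 5 other matrix genes were higher than at day 3, and 4 and 3 than at day 9. Eln lay between 0 and 0.063 CPM at day 3, far below its level in MEF. Counts were summed per library for these comparisons, so fewer cells of a type and less RNA per cell were not told apart.

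Among secreted inflammatory genes 6 of 16 were higher in MEF than at day 3 (8.38% of all genes) and 5 than at day 9 (5.54% of all genes). The chemokine Cxcl15, at 112.0 and 107.5 CPM in MEF, lay between 0 and 0.139 CPM at day 3 (10.70 ± 1.18, edgeR adjusted p = 2.88e-05) and reached at most 1.01 CPM at day 9. Hp (haptoglobin), at 269.5 and 285.6 CPM, lay between 0 and 1.27 CPM at day 3 (9.12 ± 1.24, edgeR adjusted p = 0.000186) and Serpina3n, a protease inhibitor of the acute phase, between 0 and 0.386 CPM. Saa3, Lcn2 and Ccl2 were not called at either time. The whole list summed to between 303.2 and 27154 CPM at day 3 and between 12.3 and 31093 CPM at day 9. Its sums in MEF, 22802 and 22555 CPM, lay within both ranges. With either MEF library left out, 4 of the 16 were higher than at day 3 and 2 than at day 9, and 2 imprinted genes at each time. Of 18 imprinted genes 4 were higher than at day 3 (H19, Igf2, Mest and Plagl1), beside the same 8.38% of all genes. Mest, at 112.5 and 122.5 CPM in MEF, lay between 0.289 and 2.18 CPM there (6.54 ± 1.11, edgeR adjusted p = 0.000968).

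Of 26 mesenchymal transcription factors 5 were higher in MEF than at day 3, where 8.38% of all genes were. Zeb1, a repressor of epithelial genes, stood at 136.4 and 131.3 CPM against 9.17 to 28.9 CPM (2.54 ± 0.32, edgeR adjusted p = 0.000113), and Snai2, which acts on the same genes, at 140.5 and 135.8 CPM against 7.23 to 23.7 CPM (3.24 ± 0.69, edgeR adjusted p = 0.00473). Meox1, Foxc1 and Osr1 were the others, and fewer of the 26 were called with either MEF library left out. Prrx1 and Twist1 stood at 255.7 and 255.9 CPM and at 141.6 and 144.5 CPM. They lay above 8 of 8 day 3 libraries without passing the test, and how many of all genes lie so was not counted. Contractile genes had 1 call of 16 (Smtn), a share below that over all genes, and 0 with either MEF library left out (DESeq2, on both libraries, called 1 higher and 3 lower). No G2 and M phase gene of 24 and no S phase gene of 20 was called at either time by edgeR. DESeq2 called 9 G2 and M phase genes lower in MEF than at day 3 and 0 at day 9, and 4 S phase genes higher and 2 lower at day 3 and 9 higher and 2 lower at day 9. The G2 and M phase list summed to 121.0 and 118.6 CPM in MEF, 96.5 to 345.7 CPM at day 3 and 71.9 to 618.3 CPM at day 9, so MEF lay within the range of the transduced libraries.

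RNA quality moved with this contrast. Gm42418, AY036118 and Lars2 took 0.084% and 0.076% of UMIs in MEF, 0.284% to 8.32% at day 3 and 0.146% to 10.8% at day 9. The leukocyte list, at 2.83 and 2.81 CPM in MEF, summed to 222.2 to 949.1 CPM at day 3 and 290.3 to 1956 CPM at day 9. Depth varied widely among transduced libraries. Library totals ran from 2291128 to 89394715 UMIs at day 3 and from 4651950 to 84879042 at day 9. Median UMIs per cell ran from 2765 to 82866 and from 2786 to 75761.5. In the shallowest library, SI8 CD2 day 3, 3 UMIs amount to 1.31 CPM, so lower levels were not resolved there. The part of RNA quality, leukocyte transcripts and depth in the differences above was not tested. The count of called genes depended on the libraries: 4451 at day 3 and 3310 at day 9 without the library labelled PI8 day 9, and 561 to 566 and 264 to 267 with 1 MEF library left out.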

How the data were processed

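Single-cell RNA of 21 samples was captured with 10x Chromium 3′ chemistry, per the labels' protocols. The submitters' processing notes name Cell Ranger 6.0.1, Seurat and mm10. The deposited table holds UMI counts, not normalized, for 24455 genes in 25991 cells. Each cell was tied to its library by its barcode prefix. The members and gene lists were chosen with earlier results of these data known. The named genes were all list members, the 10 of largest change each way among called genes at 50 CPM or more (against transduced libraries, also in 1 direction in every library), and the leading 10 genes of each cluster. The interferon and limb lists, the co-detected pairs, the genes of extreme ratio between the libraries and the genes low in a cluster were chosen after their values were seen. The deposited counts were summed per library, or per library and cell class, and tested with edgeR 4.0.16 (TMM, filterByExpr, quasi-likelihood test, Benjamini-Hochberg adjusted p under 0.05); DESeq2 1.42.0 was an alternative. The fit against transduced cells held 18 libraries in 3 groups, with the other day sharing the estimate of the spread. Within MEF, both classes of a sum pair come from the same library, which was the block. Cells were clustered with scanpy 1.11.5 (Leiden, resolution 0.5, 30 principal components, 2000 variable genes, without cycle, sex-linked, mitochondrial and ribosomal protein genes). Cells were thinned to 10000 UMIs for shares, leaving out 62 and 10 shallower MEF cells. Intervals (95%) are exact binomial or Poisson and cover counting error only. The fits were tested on simulated counts with 200 changed genes: at 4-fold, 9% were recovered against day 3, 11% against day 9, 65% for G2M cells and 94% for Xist cells, with 0, 0, 2 and 11 false calls.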

Additional observations from a re-analysis of the deposited data

How the results depend on the processing

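Against day 3 the count of called genes went from 2825 to 561 and 566 with a MEF library left out, to 4451 without the library labelled PI8 day 9 and to 4611 by DESeq2; against day 9 it went from 1746 to 264 and 267, 3310, and 3523 by DESeq2 (1432 higher and 2091 lower, against 917 and 829), and to 1058 with day 9 and MEF alone. Without the replicate block, in which a library pairs its 2 cell classes, the G2M comparison called 546 genes in place of 391 and the Xist comparison 29 in place of 140. DESeq2 called 128 (115 higher, 13 lower, against 242 and 149) and 12 (10 and 2, against 78 and 62), and thinned cells gave 0 and 67. With 8 genes in place of 5 making a class, 0 genes were called for G2M (511 at an unadjusted p under 0.05 by edgeR). Of the genes named, Cmpk2 turned to -1.44 in G2M cells with 8 genes, and Ptn to 0.39 with 3. The G2M shares of replicates 1 and 2 became 7.67% and 6.98% with 3 genes, 0.202% and 0.175% with 8, 3.91% and 6.77% unthinned and 0.342% and 0.347% at 5000 UMIs. The S shares became 17.2% and 16.7%, 0.958% and 1.05%, 11.98% and 21.1%, and 1.08% and 1.45%. At 10 CPM 2 genes passed 1.5-fold between the libraries, and a resolution of 0.8 gave 8 clusters. For a pair of sums with 1 library left out, no test was possible. With a MEF library left out, the lone one is assumed to vary like the other groups. The cause of these changes was not tested. Genes of a few UMIs per 10000 are limited by depth.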
